A study of Mus musculus with 35 samples.

Results

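Amino acid carriers of the plasma membrane and the lysosome were followed across 35 single mouse peritoneal macrophages. The carriers were taken as all gene symbols that begin with Slc, a family number of 1, 3, 6, 7, 36, 38 or 43, the letter a and a member number, without the taurine carrier Slc6a6. This gave 60 genes of the 32245 symbols in the tables of the lactate experiment and of the comparison of techniques, and the same 60 of 35624 in the table of the AZD3965 experiment. All cells were primary macrophages flushed from the peritoneal cavity of male C57BL/6 mice aged 6 months, kept in medium with glutamine and sequenced as full-length cDNA after 20 cycles of PCR. The lactate experiment held 8 cells given 10 mM lactate and 8 control cells, and the AZD3965 experiment held 5 cells given lactate together with 300 nM AZD3965 and 5 cells given lactate alone, each for 72 h. In scMeT-seq, cytoplasm is drawn off for mass spectrometry before the rest of the cell is lysed for RNA. The paper describes the cells of the lactate and AZD3965 experiments as scMeT-seq cells. Its plot of the lactate experiment gives 8 lactate-treated and 7 control cells, and the control cell left out is not named. In the comparison of techniques lactate was likewise given at 10 mM for 72 h. That comparison held 4 lactate-treated cells taken through scMeT-seq, 3 lactate-treated cells lysed whole and 2 control cells lysed whole. Below, the name scMeT-seq cells is kept for these 4. AZD3965 blocks MCT1, the main lactate carrier of many cells. No label ties a cell to a mouse or a dish. Each group therefore counts as 1 sample, its cells are not replicates, and no difference below has a replicate check.

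Amino acid uptake into macrophages is shared among families that differ in what drives them. Slc1 carriers exchange or concentrate glutamate and small neutral amino acids, Slc6 and Slc38 carriers use the sodium gradient, and the cationic members of Slc7 bring in arginine, the substrate that arginase and nitric oxide synthase compete for. The light chains of Slc7 reach the membrane only when joined by a disulfide bridge to a heavy chain, Slc3a2 or Slc3a1. Slc7a11 with Slc3a2 forms system xc-, which trades intracellular glutamate for extracellular cystine and so feeds glutathione synthesis. In the lysosome, Slc36a1 and Slc38a9 move amino acids across the membrane and take part in amino acid sensing by mTORC1, the kinase complex that couples nutrient supply to growth. Many of these genes are known targets of ATF4, the transcription factor of the amino acid response, and Slc7a11 also of NRF2, the factor of the antioxidant response.

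Promoter sequences are shown for the system xc- pair and for Slc38a2, the adaptive neutral carrier, because both ends of system xc- are followed through every comparison below and Slc38a2 is the carrier best known for induction by amino acid shortage. The sequences are those of RefSeq on GRCm38.p6, with the 250 bases before the annotated start, written 5′ to 3′ on the strand of the gene. Capitals mark the core of the amino acid response element, TGATGNAAN, or the core of the antioxidant response element, TGACNNNGC, each searched on both strands.
Slc7a11, chr3:50443614-50443863, minus strand: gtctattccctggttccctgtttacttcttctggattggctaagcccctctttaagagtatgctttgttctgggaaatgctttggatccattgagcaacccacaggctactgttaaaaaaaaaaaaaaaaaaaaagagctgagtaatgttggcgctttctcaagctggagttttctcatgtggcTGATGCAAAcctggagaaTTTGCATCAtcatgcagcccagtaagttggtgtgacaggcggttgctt
Slc3a2, chr19:8713898-8714147, minus strand: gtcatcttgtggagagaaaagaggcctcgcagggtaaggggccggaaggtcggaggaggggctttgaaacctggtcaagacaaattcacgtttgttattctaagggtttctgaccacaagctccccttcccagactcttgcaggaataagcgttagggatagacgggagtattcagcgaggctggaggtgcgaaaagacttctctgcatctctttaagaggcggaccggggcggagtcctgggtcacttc
Slc38a2, chr15:96699729-96699978, minus strand: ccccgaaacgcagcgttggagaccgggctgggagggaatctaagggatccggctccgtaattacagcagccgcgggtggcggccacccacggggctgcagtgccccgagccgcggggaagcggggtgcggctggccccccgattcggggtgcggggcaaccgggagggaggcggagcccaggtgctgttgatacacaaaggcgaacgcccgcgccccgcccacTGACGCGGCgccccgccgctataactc

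In the Slc7a11 window the amino acid response core was found on each strand, from base -66 to -58 and from base -48 to -40 before the start. Of the 60 carriers, 43 had an entry in the promoter table, with 64 windows of 300 bases (250 before and 50 after a start). TGATGNAAN was found in 5 of the 64 windows (7.81%), against 1299 of all 32851 windows of the table (3.95%). The 5 windows belong to Slc1a4, Slc6a21, Slc7a7 and Slc7a11. More than 1 match stood in 2 of the carrier windows, those of Slc7a7 and Slc7a11, and in 23 of all windows (0.0700%). TGACNNNGC was found in 11 carrier windows (17.2%), against 12.4% of all windows, and the 11 belong to 9 genes that include Slc7a1, Slc7a6, Slc36a1 and Slc38a2. These counts describe letters in a window and were not set against binding data. Sequence outside the windows was not searched, so a window without a core does not mean that the gene lacks one. The Slc3a2 window shown lies within the annotated extent of the gene, which reaches to base 8723369.

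The libraries held 58444 to 851417 counts assigned to genes. Depth was 269393 to 459859 counts in the lactate experiment, 494520 to 851417 in the comparison of techniques and 58444 to 175450 in the AZD3965 experiment. Of 18 macrophage markers 13 to 18 had a count in every cell, but 4 cells also carried markers of fibroblasts or mesothelium. Fibroblast markers other than Fn1, which macrophages also make, together with mesothelial markers reached 1231.5% of the summed macrophage marker level in control cell CTL32, 43.01% in lactate+AZD cell W14, 23.8% in control cell CTL30, 17.8% in lactate cell Lactic29 and at most 4.93% in the other 31 cells. CTL32, with macrophage markers at 3504 CPM (counts scaled to a common library total) and 13 of 14 fibroblast markers detected, goes against its macrophage label. Control cell CTL27 had counts for 3392 genes, the fewest of the 35. For several results that rest on these cells, values with and without them are given.

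Across the 35 cells 43 of the 60 carriers had at least 1 count, and 17 had none. The 17 were the glutamate carriers Slc1a6 and Slc1a7, the Slc6 members Slc6a2, Slc6a7, Slc6a9, Slc6a14, Slc6a18, Slc6a19 and Slc6a21, the Slc7 members Slc7a9, Slc7a12, Slc7a13 and Slc7a14, and Slc38a3, Slc38a5, Slc38a8 and Slc38a11. Several of them, such as Slc6a19 and Slc7a9 of the kidney and gut, are known from epithelia. A count of 0 allowed up to 3 counts, a level of up to 0.987 CPM over the 8 lactate cells and 5.16 CPM over the 5 lactate+AZD cells. All members of Slc3, Slc36 and Slc43 were seen, 11 of 15 in Slc7, 11 of 18 in Slc6, 7 of 11 in Slc38 and 5 of 7 in Slc1.

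A single cell had counts for only a part of the 60 carriers, and a carrier without a count may still be expressed. Lactate cells had counts for 15 to 24 carriers with a median of 19.5, and control cells for 7 to 26 with a median of 19. Rarefied to 269393 counts, the smallest total of the experiment, the medians were 18.5 carriers in lactate cells and 18.8 in control cells. The ranges overlapped, and the lowest control value was that of CTL27 while the highest was that of CTL30. In the shallower AZD3965 experiment 10 to 18 carriers were seen in lactate+AZD cells and 11 to 18 in lactate cells, each with a median of 13. In the comparison of techniques the numbers were 18 to 23 in scMeT-seq cells, 19 to 24 in whole lactate cells and 20 and 24 in whole control cells.

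**Figure D1:**
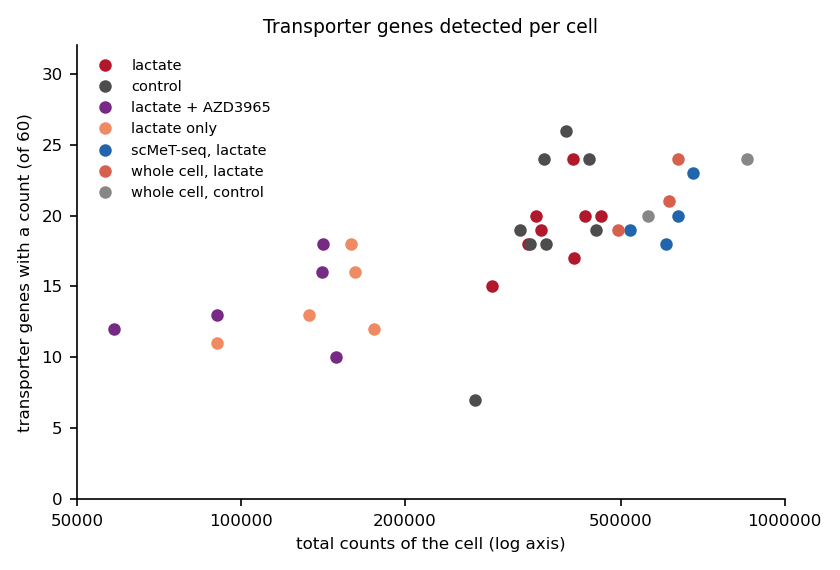
Number of the 60 carrier genes with at least 1 count (y axis) against the total counts of the cell (x axis, log scale), 1 point a cell, coloured by group. The AZD3965 cells, at 58444 to 175450 counts, have 10 to 18 carriers, and CTL27 stands alone at 7 carriers.

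Levels of different genes were compared per kilobase of exon. Slc3a2, the heavy chain, led in each of the 7 groups, with 172 CPM per kb in control cells at the lowest and 572 CPM per kb in scMeT-seq cells at the highest. Averaged over the 7 groups, Slc3a2 stood at 346.6 CPM per kb, followed by Slc7a11 at 45.6, the cationic carrier Slc7a2 at 38.2, the betaine and GABA carrier Slc6a12 at 32.3 and the light chain Slc7a8 at 32.3 CPM per kb. The order below the heavy chain changed between groups. In lactate cells Slc7a11 was next at 60.7 CPM per kb, whereas in control cells Slc7a8 (31.2 CPM per kb), Slc6a12 (30.5), Slc38a2 (28.7) and Slc7a11 (26.98) lay close together. In the AZD3965 table, which was processed apart from the others, Slc7a11 had 8.03 CPM per kb in lactate+AZD cells and 9.67 in lactate cells, and Slc7a2 had 41.8 and 45.4. Slc3a2 and Slc7a11 together took 50.8% of all carrier counts in lactate cells, 37.6% in control cells, 41.7% in lactate+AZD cells, 45.4% in the lactate cells beside them, 72.3% in scMeT-seq cells, 66.6% in whole lactate cells and 54.6% in whole control cells.

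The lactate experiment asks how macrophages respond to extracellular lactate. The carriers as a set took 3599 CPM of the summed counts in lactate cells and 2608 CPM in control cells. Of the 60, 31 were measured, that is, had at least 10 counts over both groups. In this comparison 3 of the 31 (9.68%) were at least 2-fold higher in lactate cells, beside 15.1% of all 11505 genes measured, and 10 (32.3%) were at least 2-fold lower, beside 22% of all genes. The median log2 ratio of the carriers was -0.04, and that of all genes -0.09. Intervals given with log2 ratios are exact binomial 95% intervals, and they cover counting error only, since amplified copies without molecular identifiers are not independent molecules. Leaving out CTL30, CTL32 and Lactic29 gave 3 carriers higher and 4 lower of 26 measured, beside 19.9% of all genes higher and 18.3% lower. The carrier median was then 0.30 and the all-gene median 0.01. This choice of cells, which does not count Fn1 as a marker, was made after the data were seen. Counting Fn1 also removed CTL35 and gave 6 carriers higher and 3 lower of 24, beside 22.9% of all genes higher and 17.9% lower. The carrier median was then 0.13 and the all-gene median 0.06.

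**Figure D2:**
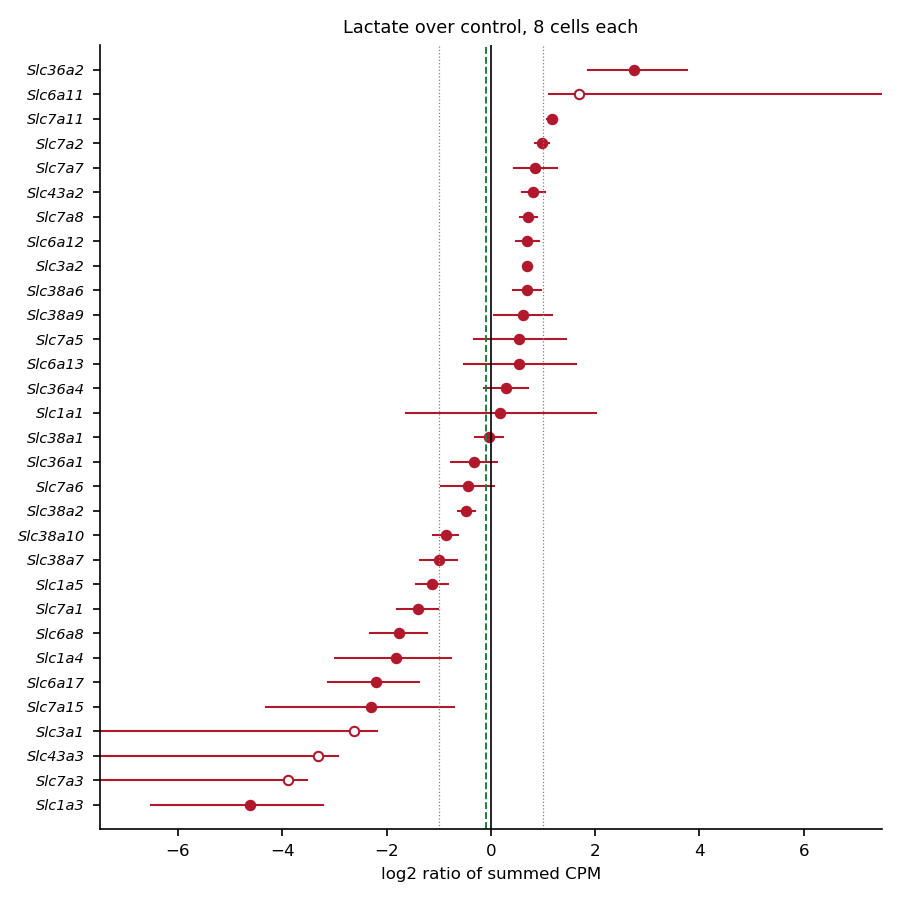
Log2 ratio of summed CPM in lactate over control cells (x axis) for the 31 measured carriers (y axis). Bars are exact binomial 95% intervals for counting error. Open points have 3 counts in place of 0 because 1 group had no count. Dotted lines mark 2-fold and the green dashed line the median of all genes (-0.09). Slc36a2 lies highest at 2.74 and Slc1a3 lowest at -4.62.

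Over all cells Slc7a11, the cystine and glutamate exchanger, was the only abundant carrier past 2-fold on the higher side. Its level ran from 403 to 1506 CPM in the 8 lactate cells with a median of 739.9 CPM, and from 8.30 to 1263 CPM in the 8 control cells with a median of 319.7 CPM. All 16 cells had counts, and the groups overlapped, with control cell CTL34 above 6 of the 8 lactate cells. Summed CPM was 845 in lactate cells and 376 in control cells, a log2 ratio of 1.17 (1.07 to 1.27). The lowest control value belonged to CTL32. Without CTL32 the log2 ratio was 0.98, and without CTL30, CTL32 and Lactic29 it was 0.90 (0.79 to 1.01), which is below 2-fold, as was 0.94 without CTL35 as well. Without CTL34 it was 1.70.

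Its partner Slc3a2 was also higher, by less than 2-fold. Lactate cells ran from 273 to 2106 CPM with a median of 859.9 CPM, and control cells from 213 to 1428 CPM with a median of 489 CPM. Summed CPM was 983 in lactate cells and 606 in control cells, a log2 ratio of 0.70 (0.61 to 0.78), and 0.52 (0.43 to 0.61) without the 3 cells with other markers. The other heavy chain, Slc3a1, which pairs with Slc7a9 in kidney, had no count in lactate cells and 18 counts in the control cells CTL32 and CTL35. With 3 counts in place of 0 it was 6.20-fold lower in lactate cells, and the log2 interval reached up to -2.18.

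**Figure D3:**
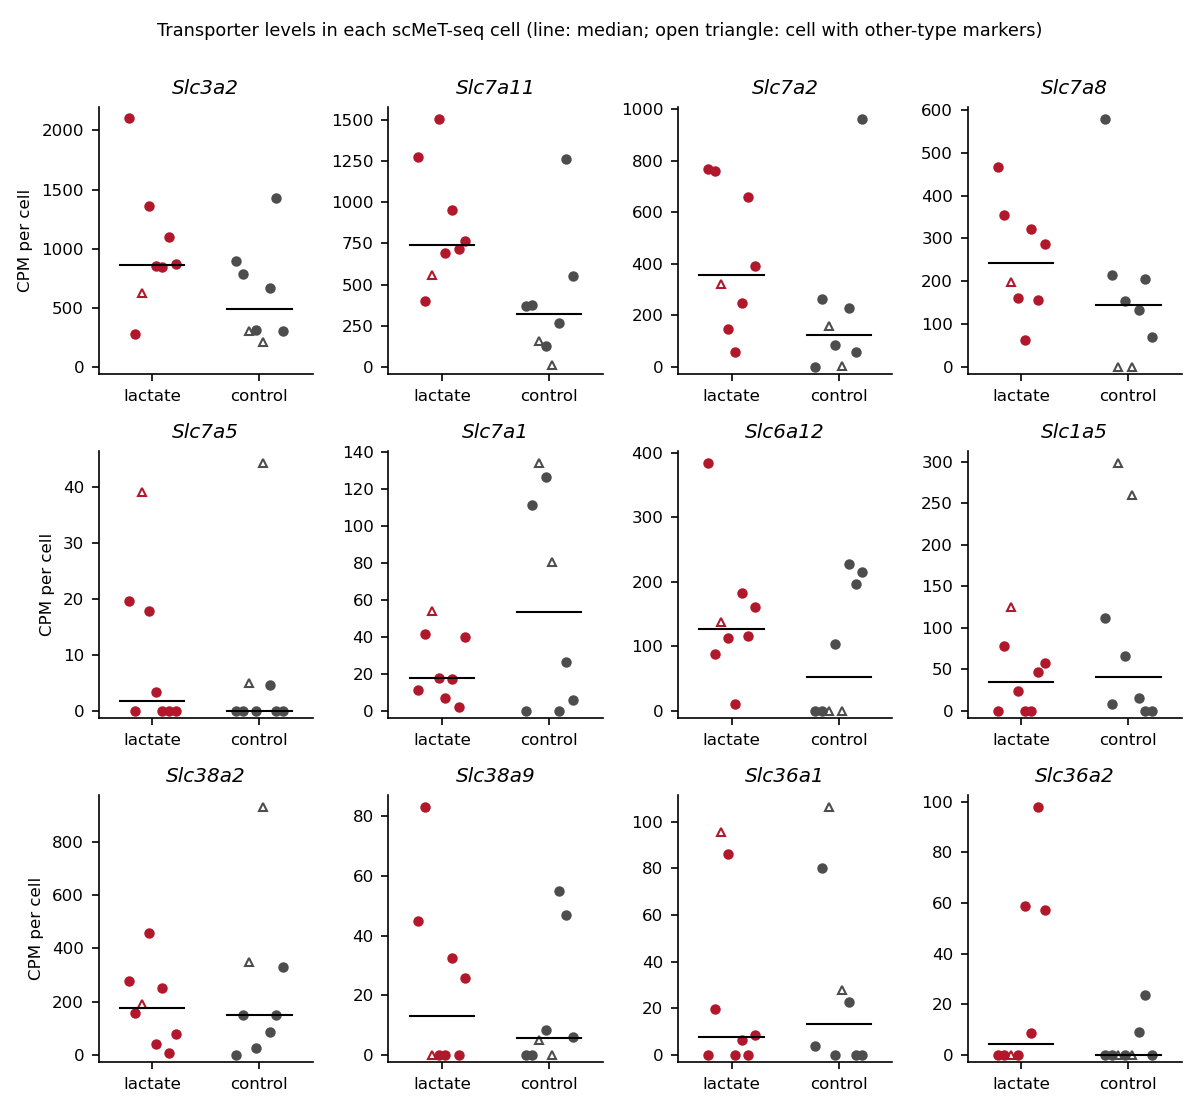
CPM of 12 carriers (y axis, each panel with its own scale) in each lactate cell (left, red) and control cell (right, grey) of the lactate experiment. Lines are medians and open triangles are the 3 cells with fibroblast or mesothelial markers. The medians of Slc7a11 are 739.9 CPM in lactate cells and 319.7 CPM in control cells, and the cells of both groups overlap in every panel.

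Across cells the pair moved together in the lactate experiment and in the comparison of techniques, and less closely in the AZD3965 experiment. Over the 16 cells of the lactate experiment, log2(CPM + 1) of Slc7a11 and Slc3a2 had a Pearson r of 0.76 and a Spearman rho of 0.77, the 7th highest rho among 7809 genes seen in at least 50% of the cells. Without the cells with other markers r was 0.72 and rho 0.71 over 13 cells, and without the 2 cells farthest from the Slc7a11 median r was 0.73 and rho 0.71. The comparison of techniques gave r = 0.88 and rho = 0.95 over 9 cells, and r = 0.68 and rho = 0.89 without the 2 farthest cells. In the AZD3965 experiment r was 0.64 and rho 0.58 over 10 cells, rank 287 of 5814 genes, and 3 of those cells had no Slc7a11 count. Without W14 r was 0.52 and rho 0.47 over 9 cells, rank 641. Other carriers came as close to Slc7a11 there. Slc7a2 had an r of 0.64 over the 10 cells, and Slc7a8 a rho of 0.56 without W14. These values were computed after the levels had been seen and are given as a description. Cells of an experiment share their treatment groups, and their totals differ.

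**Figure D4:**
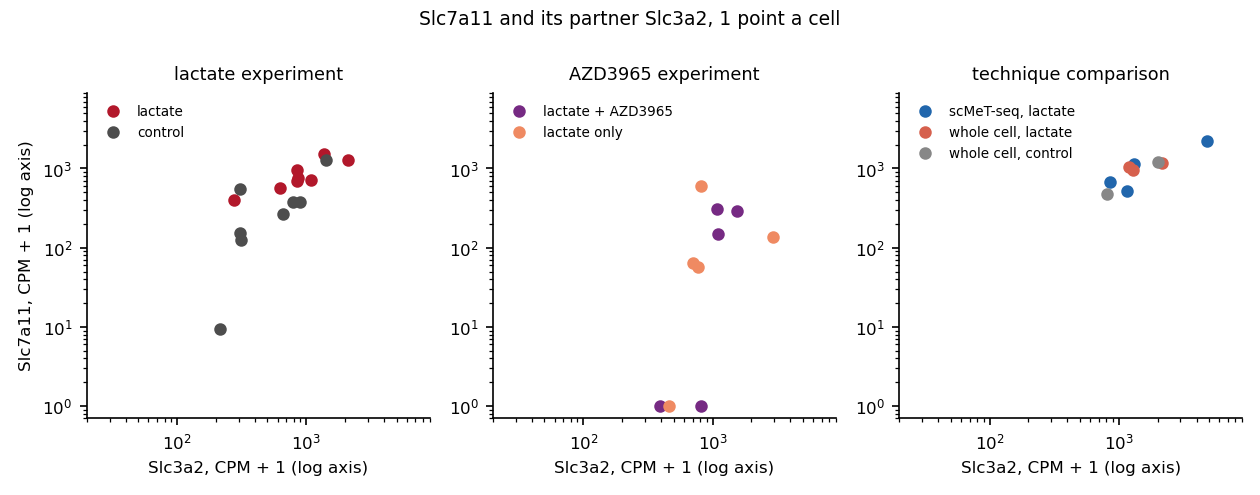
Slc7a11 (y axis) against Slc3a2 (x axis), both as CPM + 1 on log axes, 1 point a cell, in the 3 experiments. Points rise together in the lactate experiment (rho 0.77) and in the comparison of techniques (rho 0.95), and 3 cells of the AZD3965 experiment lie at 0 for Slc7a11.

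Of the remaining measured light chains only Slc7a15 was 2-fold apart over all cells. It had 4 counts in lactate cells and 19 in control cells, a log2 ratio of -2.30 (-4.31 to -0.71). The ratio was -1.85 (-4.37 to 0.15) without the cells with other markers. Slc7a8 (LAT2), an exchanger of neutral amino acids, ran from 62.3 to 468 CPM in lactate cells with a median of 242 CPM, and from 0 to 579 CPM in control cells with a median of 143 CPM. Counts were present in all 8 lactate cells and in 6 control cells, the log2 ratio was 0.72 (0.55 to 0.89), and without the cells with other markers it was 0.34 (0.17 to 0.51). Slc7a5 (LAT1), the large neutral amino acid exchanger of dividing cells, was nearly silent. It had 30 counts in 4 lactate cells and 20 counts in 3 control cells, 9.87 and 6.80 CPM in all, and Lactic29 and CTL32 held 53.3% and 80.0% of them. Its log2 ratio was 0.54 (-0.33 to 1.43), and 1.95 (0.42 to 5.72) without the cells with other markers, where 14 and 2 counts were left. Slc7a7, which exports cationic amino acids from macrophages and epithelia, had 46.7 CPM in lactate cells and 25.8 CPM in control cells, a log2 ratio of 0.85 (0.44 to 1.28). Slc7a6, its close relative, had 19.7 CPM in lactate cells and 26.9 CPM in control cells, a log2 ratio of -0.44 (-0.95 to 0.06).

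The cationic carriers moved in opposite directions. Slc7a2, the inducible arginine carrier of macrophages, ran from 58.8 to 768 CPM in lactate cells with a median of 355 CPM, and from 0 to 962 CPM in control cells with a median of 122 CPM. The highest control value, in CTL35, was the highest of all 16 cells. The log2 ratio of the sums was 0.98 (0.84 to 1.12), just below 2-fold, and 1.06 with TMM factors. It was 1.76 without CTL35, 0.76 without the 3 cells with other markers and 1.63 without these 3 and CTL35. Slc7a1, the constitutive cationic carrier, had 2.33 to 53.9 CPM in lactate cells with a median of 17.6 CPM, against 0 to 134 CPM in control cells with a median of 53.4 CPM. Its log2 ratio was -1.40 (-1.81 to -1.005), and -1.31 (-1.82 to -0.82) without the cells with other markers. Slc7a3 had no count in lactate cells and 43 counts in control cells, all in CTL30 and CTL32.

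Most carriers on the lower side had their control counts in the cells with fibroblast markers. CTL30 and CTL32 held all control counts of the glial and fibroblast glutamate carrier Slc1a3, of Slc1a4, Slc6a17, Slc7a3 and Slc43a3, and of these 5 only Slc1a4 kept any count, 8 in lactate cells, once the 3 cells with other markers were left out. Slc1a3 had 1.32 CPM in lactate cells and 32.3 CPM in control cells, of which CTL30 held 96.8%, a log2 ratio of -4.62 (-6.52 to -3.21). The fibroblast markers ran the same way, with 9 of 12 measured at least 2-fold lower in lactate cells and summed levels of 1983 to 12332 CPM in lactate cells and 917 to 59864 CPM in control cells, and their part in these carrier results was not tested beyond leaving the cells out.

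Slc1a5 (ASCT2), the main glutamine carrier of many cells, showed the same dependence. It ran from 0 to 125 CPM in lactate cells with a median of 35.1 CPM, and from 0 to 298 CPM in control cells with a median of 41.0 CPM. Its log2 ratio was -1.13 (-1.44 to -0.82) over all cells, and 0.032 (-0.46 to 0.53) without CTL30, CTL32 and Lactic29, and CTL30 and CTL32 held 76.5% of its control counts. Leaving out CTL35 too gave -0.20, CTL30 alone -0.53 and CTL32 alone -0.72. Slc1a1, the neuronal and epithelial glutamate carrier, was barely present with 7 counts in lactate cells and 6 in control cells.

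Over all cells none of the 6 measured Slc38 members was 2-fold apart, and Slc38a7 came nearest. Slc38a2 (SNAT2), which cells induce when amino acids run short, ran from 6.98 to 456 CPM in lactate cells with a median of 175 CPM, and from 0 to 930.1 CPM in control cells with a median of 149 CPM. The highest value lay in CTL32. The log2 ratio was -0.47 (-0.64 to -0.31) over all cells and 0.54 (0.32 to 0.76) without the cells with other markers, so that the direction turned, as it did without CTL32 alone (0.20). Leaving out CTL35 as well gave 1.03, past 2-fold in the other direction. Slc38a7, which exports glutamine and asparagine from lysosomes, had 32.9 CPM in lactate cells and 65.6 CPM in control cells, 1.99-fold lower with a log2 ratio of -0.996 (-1.36 to -0.64), and -0.69 without the cells with other markers. Slc38a1 had 81.3 CPM in lactate cells and 83.3 CPM in control cells.

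The lysosomal sensors of arginine and proton-coupled export were scarce. Slc38a9, the arginine sensor of mTORC1, had counts in 4 lactate cells and 5 control cells, with highest values of 82.98 CPM in lactate cells and 54.996 CPM in control cells and a log2 ratio of 0.61 (0.06 to 1.17), which ran from -0.071 without Lactic28 to 1.41 without CTL33. Slc36a1 (PAT1), which moves small neutral amino acids out of lysosomes with protons, had counts in 5 cells of each group, up to 95.5 CPM in lactate cells and 106 CPM in control cells, with a log2 ratio of -0.32 (-0.76 to 0.12), which was -1.04 without Lactic29 and 0.27 without CTL30. Single cells thus set the direction of both genes. Slc36a2 (PAT2), a proton-coupled carrier of glycine, alanine and proline, had the largest ratio of all 31 carriers. It was present in 4 lactate cells at 8.70 to 97.7 CPM and in 2 control cells at 9.17 and 23.5 CPM, in all 83 and 12 counts, a log2 ratio of 2.74 (1.86 to 3.75), and 2.52 (1.64 to 3.53) without the cells with other markers. The other 4 lactate cells had none.

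Among the osmolyte and neurotransmitter carriers, Slc6a12 (BGT1), which takes up betaine and GABA, ran from 10.4 to 384 CPM in lactate cells with a median of 127 CPM, and from 0 to 227 CPM in control cells with a median of 52.2 CPM. All 8 lactate cells and 4 control cells had counts, and the log2 ratio was 0.70 (0.48 to 0.92), or 0.29 (0.07 to 0.52) without the cells with other markers. Slc6a8, the creatine carrier, had 12.5 CPM in 3 lactate cells and 42.1 CPM in 5 control cells, a log2 ratio of -1.75 (-2.32 to -1.22), and -2.07 (-2.84 to -1.35) without those cells. Slc6a11, a GABA carrier, had 10 counts, all in Lactic27, and none in control cells. With 3 counts in place of 0 it was 3.23-fold higher in lactate cells, and the log2 interval reached down to 1.12. Slc43a2 (LAT4), a facilitated carrier of branched-chain and aromatic amino acids, had 163 CPM in lactate cells and 92.8 CPM in control cells, a log2 ratio of 0.81 (0.60 to 1.03).

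Genes that work with the carriers were followed as fixed lists. Of 16 measured genes of ATF4 and the amino acid response, none was at least 2-fold higher and 2 were lower in lactate cells, with a median log2 ratio of 0.06. The 2 were Vldlr (5.26 CPM in lactate cells and 21.1 CPM in control cells) and Stc2 (2.96 and 9.52 CPM). Of 7 genes of glutathione synthesis 1 was higher and 2 were lower (median 0.36), and of 10 NRF2 targets none was higher and 1 was lower (median 0.24). Serine and glycine enzymes had 1 of 10 higher and 4 lower (median -0.86), led by Phgdh, the first enzyme of serine synthesis, with 20.7 CPM in lactate cells and 175.7 CPM in control cells, of which CTL32 held 93.4%. None of 9 glutamine and glutamate enzymes was 2-fold apart (median -0.23). Of 11 arginine and polyamine enzymes 2 were lower (median -0.27), the spermidine synthase Srm, at 9.21 CPM in lactate cells and 49.3 CPM in control cells, and Nos2, at 2.30 and 35.7 CPM with every control count in CTL35. The mTORC1 amino acid sensing list had 2 of 28 higher and 2 lower (median -0.14), with Tfeb, a master regulator of lysosomal genes, at 62.2 CPM in lactate cells and 15.3 CPM in control cells. Of 9 other lysosomal carriers 2 were lower, Slc29a3 and Spns1. These shares stand beside the 15.1% and 22% of all genes above. Without the 3 cells with other markers the ATF4 list had 4 of 14 higher and none lower (median 0.52), and the serine and glycine list 3 of 8 higher and 2 lower, beside 19.9% of all genes higher and 18.3% lower.

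The AZD3965 experiment asks what changes when MCT1 is inhibited in lactate-treated macrophages. The carriers took 2476 CPM in lactate+AZD cells and 2901 CPM in lactate cells. Of 19 measured, 2 (10.5%) were at least 2-fold higher in lactate+AZD cells, beside 24.9% of all 8764 genes measured, and 3 (15.8%) were at least 2-fold lower, beside 15.6% of all genes. The median log2 ratio was -0.20 for the carriers and 0.17 for all genes. Scaling by TMM factors moved every log2 ratio by -0.16 and gave 1 carrier higher and 4 lower. Fibroblast markers were at least 2-fold higher with lactate+AZD for 7 of 10 measured. Their summed levels were 155 to 31341 CPM in lactate+AZD cells and 1505 to 9667 CPM in lactate cells. Without W14, the highest cell, 0 carriers were higher and 3 lower of 17, beside 20.5% of all genes higher and 21.2% lower. In this table the count 2 occurred 6215 times and the count 1 only 1914 times, whereas in the table of the lactate experiment 2 occurred 5614 times and 1 occurred 9283 times, so the unit of low counts in this table is uncertain and its counting intervals may be too narrow.

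Slc7a11 had 149, 308, 288, 0 and 0 CPM in the lactate+AZD cells T10, F8, F9, W10 and W14, against 56.5, 62.7, 608, 0 and 136 CPM in the lactate cells T11, T13, F18, W5 and W20. Both groups held cells without a count, and the highest cell was a lactate cell. The log2 ratio was -0.27 (-0.74 to 0.20), and 0.75 without F18. Slc3a2 was present in every cell, at 389 to 1538 CPM with lactate+AZD and 457 to 2924 CPM with lactate alone, where W20 held 55.6% of the group's counts, and its log2 ratio was -0.36 (-0.52 to -0.21) with W20 and 0.44 without it. Slc7a2 had 86.8 to 1061 CPM in lactate+AZD cells and 0 to 704 CPM in lactate cells, with a log2 ratio of -0.12 (-0.38 to 0.14). Slc7a8 had 13.4 to 332 CPM in lactate+AZD cells and 119 to 376 CPM in lactate cells, with a log2 ratio of -0.37 (-0.74 to -0.01). None of these 4 abundant carriers was 2-fold apart, and the cells of both groups overlapped for each.

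The few carriers past 2-fold rested on single cells. Slc6a8 had 28.3 CPM in T10, 49.5 CPM in W14 and none in the other 3 lactate+AZD cells, against 34.2, 99.4, 37.5 and 247 CPM in 4 of the 5 lactate cells. Its log2 ratio was -2.14 (-3.21 to -1.20), and -0.92 without W20, which held 66.7% of the lactate counts. Slc43a2 had 42.5, 68.4, 22.1, 287 and 184 CPM in lactate+AZD cells, against 44.0, 96.9, 155, 30.0 and 49.3 CPM in lactate cells. Its log2 ratio was 1.01 (0.48 to 1.54), 0.84 with TMM factors and 0.34 without W10. W10 also carried B cell markers at 247 CPM and markers of small peritoneal macrophages and dendritic cells at 1155 CPM. The part of these markers in the ratio was not tested. Slc7a4 was seen in 1 cell of each group, W14 and F18, and Slc7a7 in 1 lactate+AZD cell and 2 lactate cells. Slc43a3 had 13 counts, all in W20. With 3 counts in place of 0 it was 3.49-fold lower with lactate+AZD, and the log2 interval reached up to -1.30.

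The other 14 of the 19 measured carriers were within 2-fold. Slc1a5 had 26.7 to 191 CPM in the 5 lactate+AZD cells, with the highest value in W14, and 0 to 114 CPM in lactate cells, and its log2 ratio of -0.24 (-0.82 to 0.33) became -1.16 without W14. Slc38a2 had 63.6 to 266 CPM in lactate+AZD cells and 0 to 278 CPM in lactate cells, a log2 ratio of -0.20 (-0.68 to 0.28) that was 0.42 without W20. Slc36a2 had counts in 4 lactate+AZD cells and 3 lactate cells, 36.1 and 66.6 CPM in all, and a log2 ratio of -0.88 (-1.70 to -0.12). Slc36a1 was seen in 1 cell of each group, Slc38a9 in 2 cells of each group and Slc7a5 in 1 lactate cell only. Below 10 counts over both groups, no ratio was computed. Slc6a12, which every lactate cell of the lactate experiment expressed, was close to absent here, at 3.44 CPM with lactate+AZD and 9.71 CPM with lactate alone.

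The mTORC1 amino acid sensing list had 11 of 26 genes at least 2-fold higher with lactate+AZD and 3 lower, with a median of 0.58, beside 24.9% of all genes higher and 15.6% lower. Without W14 the counts were again 11 and 3 of 26 with a median of 0.55, beside 20.5% of all genes higher and 21.2% lower. The higher ones with most counts were Rragc (115 CPM in lactate+AZD cells and 47.2 CPM in lactate cells), Rraga (77.4 and 20.8 CPM), which encode Rag GTPases that dock mTORC1 on the lysosome, and Mtor itself (68.8 and 16.7 CPM). The lower ones were Sesn1, Tfe3 and Tfeb. Of 14 genes of ATF4 and the amino acid response 3 were higher and 4 lower (median 0.18), and of the lower ones Ddit3 had 84.3 CPM in lactate+AZD cells and 245.6 CPM in lactate cells, of which W20 held 85.9%. Without W14 the ATF4 list had 2 of 13 higher and 5 lower. Serine and glycine enzymes had none of 7 higher and 4 lower (median -1.24), and 2 lower without W14. Of 9 other lysosomal carriers 3 were higher and 2 lower, and the cystine exporter Ctns had 13.8 CPM in lactate+AZD cells and 68.0 CPM in lactate cells.

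The comparison of techniques asks whether drawing cytoplasm changes what is read from the remaining cell. The carriers took 4387 CPM in scMeT-seq cells and 3948 CPM in whole lactate cells. Of 24 measured, 8 (33.3%) were at least 2-fold higher after scMeT-seq, beside 21.7% of all 9723 genes measured, and 4 (16.7%) were at least 2-fold lower, beside 20.6% of all genes. Medians were 0.37 for the carriers and 0.02 for all genes. With the 2 whole control cells added to the whole group, 3 carriers were higher and 6 lower of 26 measured, beside 13.4% of all genes higher and 26.2% lower.

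System xc- was close between the techniques. Slc7a11 had 668, 523, 2207 and 1152 CPM in the scMeT-seq cells Lactic13, Lactic14, Lactic16 and Lactic17, against 959, 1030.0 and 1167 CPM in the whole cells Lactic5, Lactic6 and Lactic7. The whole cells lay inside the range of the scMeT-seq cells, and the log2 ratio was 0.12 (0.04 to 0.21). Slc3a2 had 847, 1166, 4780.4 and 1306 CPM in scMeT-seq cells, against 1278, 1195 and 2159.8 CPM in whole cells, a log2 ratio of 0.36 (0.29 to 0.43). Lactic16 held 58.7% of the Slc3a2 counts after scMeT-seq, and without it the log2 ratios were -0.50 for Slc3a2 and -0.39 for Slc7a11.

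Slc7a2 was the 1 abundant carrier whose scMeT-seq and whole lactate cells did not overlap. The share of all genes without overlap was not computed, and among this many carriers and so few cells 1 such case can arise by chance. It had 152, 88.5, 94.3 and 150.3 CPM after scMeT-seq, against 194, 601 and 398 CPM in whole cells, and every scMeT-seq cell lay below each of the 3 whole lactate cells, though not below the whole control cell CTL4 (127 CPM). The log2 ratio was -1.73 (-1.93 to -1.54), and -2.01 to -1.32 with each cell left out in turn. Slc38a2 had 0, 9.62, 71.1 and 121 CPM after scMeT-seq, against 97.1, 124 and 97.5 CPM in whole cells. Its log2 ratio was -1.002 (-1.34 to -0.67), with -0.57 without Lactic13 and -1.97 without Lactic17. Slc38a6 was lower too, at 18.9 CPM after scMeT-seq and 49.3 CPM in whole cells, and the glutamate carrier Slc1a2 had no count after scMeT-seq and 31 counts in 2 whole cells.

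Slc6a12 was higher after scMeT-seq, with 375, 298, 192 and 88.4 CPM, against 12.1, 171 and 91.2 CPM in whole cells, and a log2 ratio of 1.27 (1.02 to 1.52), or 0.84 without Lactic5. The ranges overlapped through Lactic17. Slc6a8 had 118, 69.3, 11.6 and 32.4 CPM after scMeT-seq, against 34.4, 0 and 34.6 CPM in whole cells, a log2 ratio of 1.36 (0.84 to 1.91), which was 0.69 without Lactic13 and 0.73 without Lactic6. Slc7a7 had the largest ratio at 2.99 (2.05 to 4.09), with 45.5 CPM after scMeT-seq and 5.74 CPM in whole cells, and Lactic16 held 70.3% of its scMeT-seq counts. The lysosomal carriers were low in both. Slc36a1 had 15.6 CPM after scMeT-seq and 4.02 CPM in whole cells, with 78.9% of the scMeT-seq counts in Lactic13 and a log2 ratio of 1.96 (0.77 to 3.36) that was 0.14 without it. Slc38a9 had 13.9 CPM after scMeT-seq and 13.8 CPM in whole cells. Slc36a2, Slc7a1, Slc7a6 and Slc1a1 were also at least 2-fold higher, at 6.15 to 37.7 CPM after scMeT-seq and 2.87 to 12.0 CPM in whole cells.

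Whole cells of the same table offer a second look at lactate, with 3 lactate and 2 control cells, and the 3 lactate cells are the same ones used against scMeT-seq. Carriers took 3948 CPM in whole lactate cells and 3740.1 CPM in whole control cells. Of 26 measured, 3 (11.5%) were at least 2-fold higher in lactate cells, beside 15.2% of all 9732 genes measured, and 9 (34.6%) were at least 2-fold lower, beside 27.6% of all genes. Medians were -0.26 for the carriers and -0.20 for all genes. TMM factors moved every log2 ratio by 0.19 and gave 5 carriers higher and 9 lower.

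Slc7a11 had 959, 1030.0 and 1167 CPM in whole lactate cells, against 476 and 1191 CPM in the whole control cells CTL4 and CTL8. The lactate cells lay between the 2 control cells, and the log2 ratio of 0.48 (0.37 to 0.59) was -0.17 without CTL4 and 1.16 without CTL8. Slc3a2 had 1278, 1195 and 2159.8 CPM in whole lactate cells, against 812 and 1995 CPM in whole control cells, a log2 ratio of 0.29 (0.21 to 0.38). Slc7a2 had 194, 601 and 398 CPM in whole lactate cells, against 127 and 961 CPM in whole control cells, with a log2 ratio of -0.16 (-0.31 to 0.00034). For all 3 genes the control cells differed from each other by more than the sums of the groups did.

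The carriers whose whole lactate and whole control cells did not overlap were all lower in lactate cells. With so few cells such separation is easily reached, and its share among all genes was not computed. All genes leaned lower here too, with 27.6% at least 2-fold lower and 15.2% at least 2-fold higher. These carriers are therefore given as a description only. Slc43a2 had 182, 84.9 and 72.4 CPM in whole lactate cells, against 253 and 329.9 CPM in whole control cells, a log2 ratio of -1.39 (-1.65 to -1.14). Slc7a7 had 0, 14.7 and 1.57 CPM in whole lactate cells, against 55.2 and 28.5 CPM in whole control cells, a log2 ratio of -2.96 (-4.09 to -1.99). In the lactate experiment, whose cells the paper describes as taken through scMeT-seq, both genes had log2 ratios above 0. These were 0.81 for Slc43a2 and 0.85 for Slc7a7. Slc36a1 had 2.02, 0 and 9.44 CPM in whole lactate cells, against 16.4 and 23.2 CPM in whole control cells, a log2 ratio of -2.25 (-3.69 to -1.02). Slc38a9 had 0, 16.3 and 22.0 CPM in whole lactate cells, against 28.2 and 42.8 CPM in whole control cells, a log2 ratio of -1.30 (-2.07 to -0.57), or -0.82 without Lactic5. Slc38a2 lay below both control cells as well, at 97.1, 124 and 97.5 CPM in whole lactate cells, against 128 and 275 CPM in whole control cells, with a log2 ratio of -0.80 (-1.08 to -0.53). Among the fixed lists, NRF2 targets had 4 of 10 higher and none lower (median 0.63), beside 15.2% and 27.6% of all genes, led by Prdx1, a peroxide-reducing enzyme, at 12762 CPM in whole lactate cells and 5536 CPM in whole control cells. Ass1, which makes the precursor of arginine, had 968 and 253 CPM. The arginine and polyamine list had 4 of 10 higher and 2 lower (median 0.60). Its summed level went the other way, at 6890 CPM in whole lactate cells and 8889 CPM in whole control cells.

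**Figure D5:**
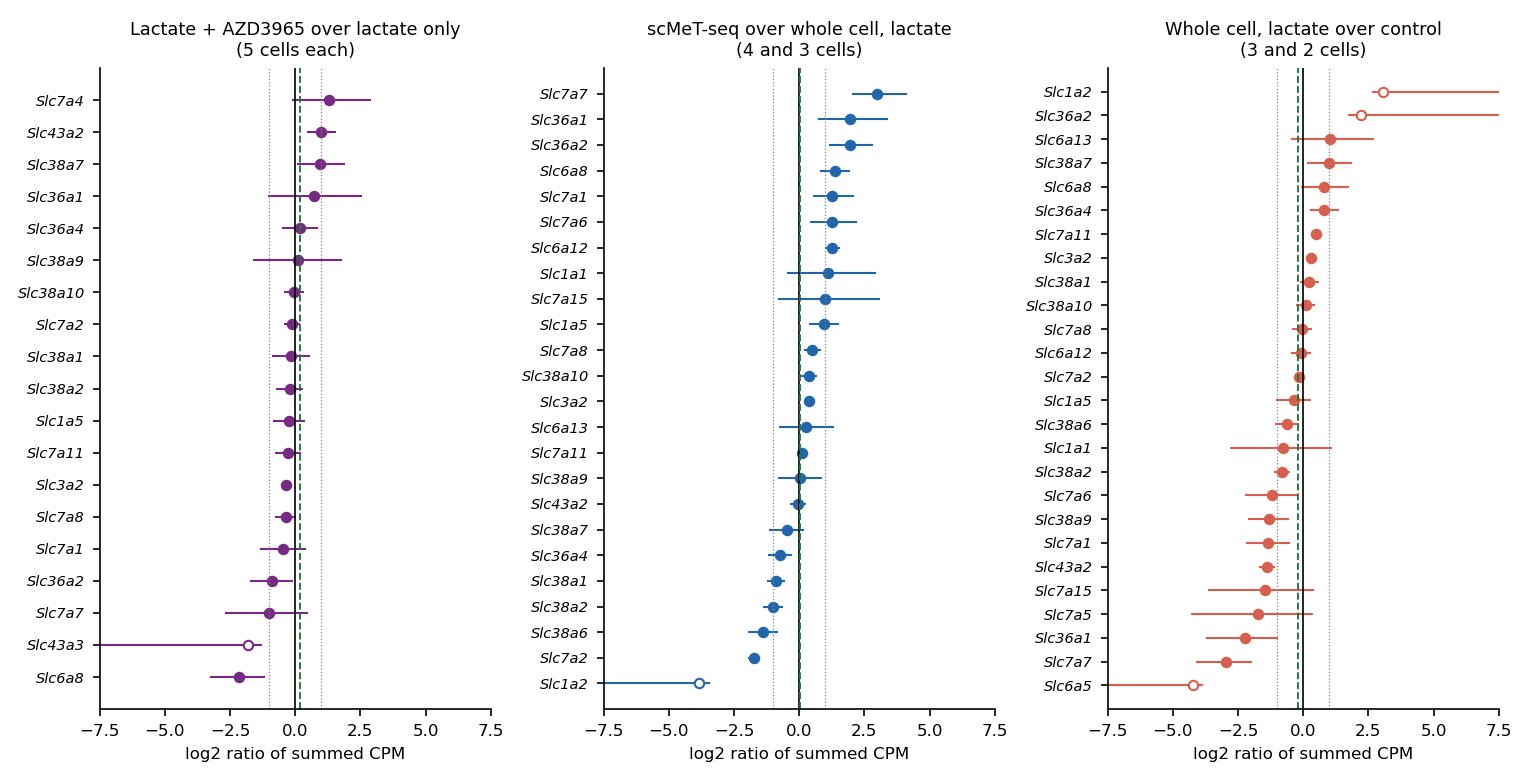
Log2 ratio of summed CPM (x axis) for the measured carriers (y axis) in lactate+AZD over lactate cells (19 carriers), scMeT-seq over whole lactate cells (24) and whole lactate over whole control cells (26). Bars are exact binomial 95% intervals for counting error, and open points have 3 counts in place of 0. Dotted lines mark 2-fold and green dashed lines the medians of all genes (0.17, 0.02 and -0.20). Slc7a11 and Slc3a2 lie within 2-fold in each panel.

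The remaining carriers past 2-fold in whole cells had few counts. Slc1a2 (31 counts) and Slc36a2 (17 counts, all in Lactic6) were absent from whole control cells. With 3 counts in place of 0 they were 8.37-fold and 4.59-fold higher in whole lactate cells. Their log2 intervals reached down to 2.68 and 1.74. Slc6a13 had 15 counts in lactate cells and 6 in control cells. On the lower side Slc7a1 had 12.0 CPM in whole lactate cells and 30.4 CPM in whole control cells, a log2 ratio of -1.34 (-2.16 to -0.55), and Slc7a6 had 9.18 and 21.2 CPM. Slc7a5 and Slc7a15 had 8 and 9 counts in whole control cells. The glycine carrier Slc6a5 had 46 counts, all in CTL4, and none in lactate cells.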

How the data were processed

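RNA of 35 single cells was measured. The authors trimmed reads with fastp 0.20.0, aligned them to mm10 with HISAT2 2.1.0, counted them per gene with StringTie and deposited whole-number counts in 3 tables, without normalization or molecular identifiers. Counts of a symbol listed more than once were summed. CPM scales counts to the total of the cell or group. For each group the cells' counts were added up, and genes with at least 10 counts over both groups were compared by the log2 ratio of CPM. Called means 2-fold. Where a group had no count, 3 counts over the group stood in for it and the fold is a bound. No test over cells was run. Cells had been picked one by one, and no doublet caller was used. Exon lengths came from GENCODE M21 (GRCm38). Python 3.11.15, scipy 1.17.1, pandas 2.3.3 and numpy 2.4.6 were used, with TMM factors from edgeR 4.0.16. The computations were tested on simulated data. The carriers, the 17 fixed lists and the naming rule were chosen with earlier results of these data known. Cell-by-cell values are given for carriers at least 2-fold apart with 50 CPM and counts in 50% of cells of the higher group, for the 5 with the highest level per kilobase and for 8 that the pathway turns on. List genes are the 1 to 3 with most counts among those 2-fold apart. Other named genes were chosen after their values were seen. Alternatives were the mean and median over cells, TMM, other minimum counts, left-out cells, equal weights for the letters of cell names, all 5 whole cells and detection at 5 counts. Levels across the 3 tables were set side by side although each table was processed separately.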

Additional observations from a re-analysis of the deposited data

Results flagged for a closer look

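In groups of 4 to 10 cells, 55 sets of values were examined for a cell whose gap to the nearest other cell was large against the range of the group by Dixon's 95% criterion, and 12 had one. A chance rate of about 1 in 20 holds for this criterion only where values are normally distributed and sets are independent. Levels in single cells were often skewed by a high cell, and the sets share cells and genes. That rate therefore does not apply, and the 12 are given as a description only. In the lactate experiment these were CTL27 with 7 carriers detected where the next control cell had 18, CTL27 for Slc7a8 (579 CPM, next 213), CTL34 for Slc7a11 (1263 CPM, next 550.01), CTL35 for Slc7a2 (962 CPM, next 265), CTL32 for Slc38a2 (930.1 CPM, next 349) and Lactic27 for Slc6a12 (384 CPM, next 183). In lactate+AZD cells they were W14 for Slc1a5 (191 CPM, next 56.7) and F9 for Slc38a2 (266 CPM, next 92.1), and in the lactate cells beside them W20 for Slc3a2 (2924 CPM, next 806) and F18 for Slc7a11 (608 CPM, next 136). After scMeT-seq, Lactic16 stood apart for Slc3a2 (4780.4 CPM, next 1306) and for all carriers together (8052 CPM, next 3513). CTL32 and W14 are cells with fibroblast markers. The part of these markers in the 2 values was not tested.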

How the results depend on the processing

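No paired analysis was possible because the numbers shared by lactate and control cells name cells only and no test over cells was run. Of the counts of carriers at least 2-fold higher or lower, those that moved by over 1.5 times are given, with higher ones first. In lactate over control, the median over cells gave 6 higher and 6 lower (main 3 and 10), a minimum of 50 counts gave 5 lower, leaving out cells with fibroblast and mesothelial markers gave 6 higher and 3 lower, and not counting Fn1 as such a marker, chosen after seeing the data, gave 4 lower and Slc1a5 at a log2 ratio of 0.032 in place of -1.13. In lactate+AZD over lactate (main 2 and 3), the mean over cells, the median over cells and TMM gave 1 higher. A minimum of 50 counts gave 1 higher and 1 lower. Equal weights for the letters gave 0 higher. Leaving out W14, the only cell of that experiment set apart by fibroblast and mesothelial markers, also gave 0 higher. In scMeT-seq over whole cells (main 8 and 4), all 5 whole cells gave 3 higher, beside 13.4% of all genes. In whole lactate over whole control (main 3 and 9), TMM gave 5 higher, and a minimum of 50 counts gave 0 higher and 4 lower. With 5 or more counts as the limit of detection, the median number of carriers per cell was 15.5 in lactate, 9 in lactate+AZD and 18 in whole lactate cells. With each cell left out, the counts higher and lower ranged over 3 to 6 and 7 to 12 in lactate over control, 0 to 4 and 1 to 4 in lactate+AZD over lactate, 4 to 10 and 3 to 6 in scMeT-seq over whole cells, and 2 to 6 and 5 to 11 in whole lactate over whole control. The median log2 ratios ranged over -0.48 to 0.29, -0.41 to 0.05, 0.18 to 0.59 and -0.73 to -0.05 in the same order. With no minimum count, 13 were lower in lactate over control. Depth limits the AZD3965 experiment most, where a gene with no count in lactate+AZD cells may reach 5.16 CPM.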
